A study of Mus musculus with 8 samples.

Results

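The genes described here are 10 genes that earlier work on activated and memory T cells often finds raised together: the calcium-binding S100 genes S100a4 and S100a6, the annexins Anxa1 and Anxa2, the galectins Lgals1 and Lgals3, the LIM-domain gene Crip1, the hyaluronan receptor Cd44, the integrin beta 1 chain Itgb1 and the giant scaffold gene Ahnak. They were taken as all probe sets whose array annotation gives 1 of these symbols as the only gene, which yielded 22 of the 22626 probe sets tested and 10 of 12393 named genes. Each probe set reads 1 stretch of a transcript; Itgb1 had 6, Ahnak 4, Anxa2 3, Lgals1 and Cd44 2 each, and the other genes 1 each. The genes were chosen on their measured differences between knockout and wild type arrays in this series, so levels in that comparison are a description and carry no test here.

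Expression was measured on 8 Affymetrix MOE430A arrays of splenic CD4 T cells, which had been flow-sorted from female mice 8 to 12 weeks old. The KO mice carried a knockout of Ahr, the aryl hydrocarbon receptor, backcrossed to C57BL/6, and the WT mice were C57BL/6. All mice had 1 intraperitoneal injection with corn oil as carrier and were killed 24 h later; TCDD mice received 10 µg/kg TCDD, a high-affinity ligand of the receptor, and DMSO mice its solvent. The groups were KO TCDD, KO DMSO, WT TCDD and WT DMSO, with 2 arrays each and RNA of 4 pooled animals on every array. The knockout is not stated to be limited to T cells, which part of Ahr it removes is not stated in the labels, and pooling leaves out the spread between single mice.

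S100 proteins bind calcium and then dock onto partners such as myosin or annexins. Annexins bind membrane phospholipids when calcium rises and serve membrane repair, traffic and anti-inflammatory signalling, while galectins bind galactose-containing sugars on glycoproteins and tune T cell survival and adhesion. Naive T cells keep most of these genes low, whereas antigen-experienced cells, and also macrophages and stromal cells, express them more strongly.

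S100a4 and S100a6 lie close together in the S100 gene cluster of chromosome 3, with S100a5 between them, and the other members lie on chromosomes 2 (Cd44), 8 (Itgb1), 9 (Anxa2), 12 (Crip1), 14 (Lgals3), 15 (Lgals1) and 19 (Anxa1 and Ahnak). Ahr itself is on chromosome 12. The RefSeq promoter table (build GRCm38.p6) held 9 members, all but Lgals1. The 250 bases before the start of transcription are shown for 3 genes whose main probe set read higher in all KO arrays, S100a4, S100a6 and Anxa2, and for Lgals3, the 1 member with a match to the core of the receptor's binding element. Capitals mark the motifs searched, on both strands and without overlap between matches. GCGTG is the core of the element that the receptor binds. Dimers of Fos and Jun (AP-1) bind TGANTCA. The TATA box was searched as TATAAA.
S100a4, chr3:90603520-90603769, + strand: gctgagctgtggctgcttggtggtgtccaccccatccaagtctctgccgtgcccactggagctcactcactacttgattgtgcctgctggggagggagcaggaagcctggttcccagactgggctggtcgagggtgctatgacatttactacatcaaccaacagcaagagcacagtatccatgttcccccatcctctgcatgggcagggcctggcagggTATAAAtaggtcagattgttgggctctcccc
S100a6, chr3:90612644-90612893, + strand: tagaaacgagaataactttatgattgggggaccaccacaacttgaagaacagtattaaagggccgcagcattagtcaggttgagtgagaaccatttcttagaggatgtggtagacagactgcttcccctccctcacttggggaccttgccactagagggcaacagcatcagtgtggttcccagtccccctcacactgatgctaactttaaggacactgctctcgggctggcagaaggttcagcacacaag
Anxa2, chr9:69453433-69453682, + strand: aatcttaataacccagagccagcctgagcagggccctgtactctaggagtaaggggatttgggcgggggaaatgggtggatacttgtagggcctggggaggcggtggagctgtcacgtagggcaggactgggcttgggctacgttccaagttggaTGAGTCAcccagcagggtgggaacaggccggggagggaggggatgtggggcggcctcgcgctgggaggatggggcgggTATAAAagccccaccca
Lgals3, chr14:47373610-47373859, + strand: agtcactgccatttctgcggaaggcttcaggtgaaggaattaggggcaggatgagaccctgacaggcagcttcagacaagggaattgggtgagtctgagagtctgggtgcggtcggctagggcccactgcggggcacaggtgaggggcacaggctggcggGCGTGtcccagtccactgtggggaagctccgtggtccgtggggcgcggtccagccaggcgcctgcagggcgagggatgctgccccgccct
GCGTG was found in 1 of the 9 windows, against 28.1% of 32817 mouse windows of the same length. Anxa2 held the 1 TGANTCA match (6.75% of all windows). TATAAA was found in S100a4, Anxa1 and Anxa2 (12.4% of all windows), ending 25, 26 and 11 bases before the start. A match is a stretch of letters and not a shown binding site.

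Some facts about the arrays bear on every value below. The CD4 T cell identity was borne out by Cd3e, part of the T cell receptor complex, at 9.36 ± 0.17 in KO and 9.53 ± 0.09 in WT, and by Cd4 at 8.16 ± 0.09 in KO and 8.36 ± 0.28 in WT (log2 level ± SD of 4 arrays). Cd8a, at 5.62 in KO and 5.77 in WT, lay under the median probe set level of 6.13. Among B and plasma cell genes, Cd79a also lay under it (5.59 in KO and 5.67 in WT), but Cd79b averaged 6.86 in KO and 6.20 in WT, and Jchain 9.49 in KO and 8.06 in WT (both named after their values were known). The WT arrays numbered 2 stood apart from the other 6 on the first principal component (40.4 for WT TCDD and 49.2 for WT DMSO, against −36.2 to 9.10), and had the smallest 3′ minus 5′ difference of the actin control, a measure of RNA integrity (3.30 and 2.90, against 3.48 to 4.56). For WT TCDD 1 the description field mentions the knockout while title, source and strain give the wild type; the array was kept as WT, and without it S100a4 read 1.15 and S100a6 1.05 higher in KO.

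S100a4, S100a6, Lgals1 and Anxa2 read higher on every KO array than on every WT array on the main probe set, by 0.67 to 1.09 on average. Cd44 had a higher mean in KO with overlapping groups. Lgals3 varied widely, and Anxa1, Crip1, Itgb1 and Ahnak read slightly lower in KO with overlapping groups. All values are log2 expression levels, on which a difference of 1 is a doubling, and the main probe set of a gene is the one with the highest mean over all arrays. In sorted bulk cells, more cells of a type and more RNA per cell cannot be told apart.

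**Figure D1:**
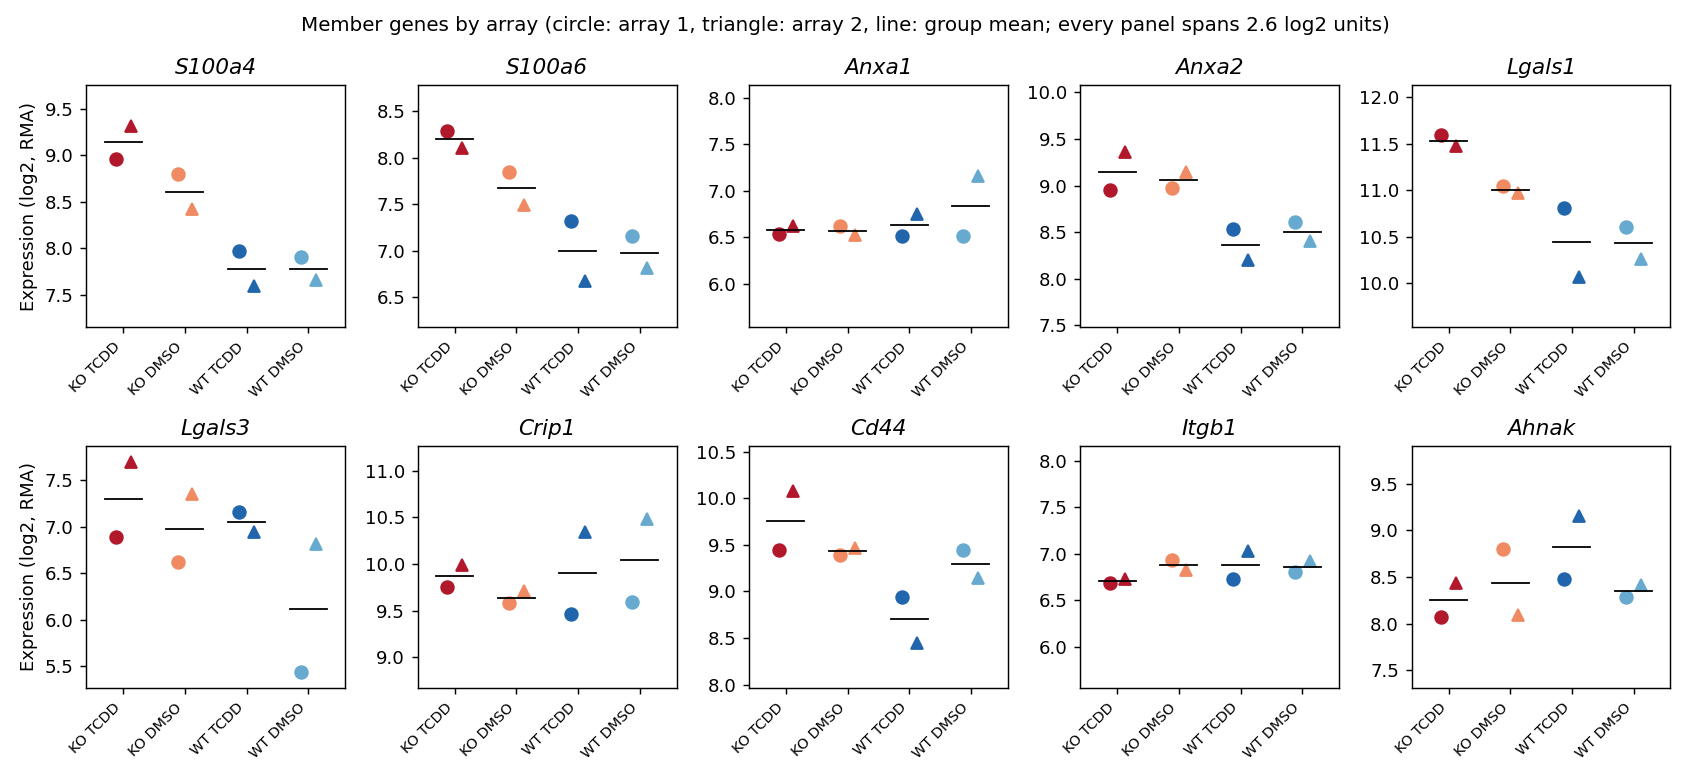
Log2 expression (y axis) of the main probe set of each of the 10 genes on the 8 arrays, in the 4 groups KO TCDD, KO DMSO, WT TCDD and WT DMSO (x axis); circles are arrays numbered 1, triangles arrays numbered 2, and lines are group means of 2 arrays. For S100a4, S100a6, Anxa2 and Lgals1 all 4 KO arrays sit above all 4 WT arrays, while for the other 6 genes the genotypes overlap.

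S100a4, a calcium-binding partner of non-muscle myosin linked to cell motility, read 8.96 and 9.31 in KO TCDD and 8.80 and 8.42 in KO DMSO, against 7.97 and 7.60 in WT TCDD and 7.91 and 7.66 in WT DMSO. The lowest KO array thus lay above the highest WT array. Over 4 arrays each, KO averaged 8.87 ± 0.37 and WT 7.78 ± 0.18 (SD). The log2 difference was 1.09 (SE 0.18), or 2.13-fold. By group, KO TCDD (mean 9.14) was highest, then KO DMSO (8.61), and both WT groups had a mean of 7.78. S100a6, a small S100 protein found in many dividing and motile cells, read 8.29 and 8.10 in KO TCDD and 7.85 and 7.49 in KO DMSO, against 7.32 and 6.67 in WT TCDD and 7.16 and 6.81 in WT DMSO. Here too the groups did not overlap, with KO TCDD again highest (mean 8.20), then KO DMSO (7.67), and WT TCDD and WT DMSO arrays interleaved. The difference was 0.94 (SE 0.20), or 1.92-fold.

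Lgals1, a secreted galectin that crosslinks T cell surface glycoproteins, was measured by a pair of probe sets that moved alike. The main one read 11.59 and 11.47 in KO TCDD and 11.04 and 10.97 in KO DMSO, against 10.81 and 10.07 in WT TCDD and 10.61 and 10.26 in WT DMSO. The lowest KO value exceeded the highest WT value by less than the spread among the WT arrays. The difference was 0.83 (SE 0.20) on this probe set and 0.91 (SE 0.20) on the other, which read 10.62 and 10.65 in KO TCDD, 10.13 and 9.85 in KO DMSO, 9.57 and 9.15 in WT TCDD and 9.63 and 9.25 in WT DMSO. By group, KO TCDD was highest and KO DMSO next, and the WT TCDD (mean 10.44) and WT DMSO (10.43) arrays did not differ beyond their spread.

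Anxa2, which binds membranes together with S100a10, read 8.95 and 9.36 in KO TCDD and 8.97 and 9.15 in KO DMSO, against 8.53 and 8.20 in WT TCDD and 8.61 and 8.40 in WT DMSO. No WT array reached the lowest KO array. Over 4 arrays each, KO averaged 9.11 ± 0.19 and WT 8.43 ± 0.18 (SD), and the difference was 0.67 (SE 0.12), or 1.59-fold. KO TCDD and KO DMSO (9.15 and 9.06) lay within each other's spread, as did WT TCDD and WT DMSO (8.36 and 8.50). Its other probe sets lay at 5.19 and 3.98 in KO and at 5.08 and 4.14 in WT, under the median level, and disagreed: the KO arrays were all above the WT arrays on 1 (difference 0.11) and all below on the other (−0.17). Anxa1, the glucocorticoid-induced annexin that acts on formyl peptide receptors, showed no such separation. It read 6.54 and 6.62 in KO TCDD and 6.62 and 6.52 in KO DMSO, against 6.51 and 6.75 in WT TCDD and 6.51 and 7.16 in WT DMSO, a difference of −0.16 (SE 0.14). The WT arrays numbered 2 were the 2 highest, and without them the difference was 0.07.

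Cd44, which binds hyaluronan and marks antigen-experienced T cells, read 9.44 and 10.08 in KO TCDD and 9.39 and 9.47 in KO DMSO, against 8.94 and 8.45 in WT TCDD and 9.44 and 9.14 in WT DMSO. The genotypes overlapped: 2 of 4 KO arrays lay above the highest WT array. The difference of 0.60 (SE 0.23) came mostly from the TCDD arrays, where it was 1.06, against 0.14 in the DMSO arrays. The other Cd44 probe set averaged 5.06 in KO and 4.98 in WT, under the median level, with a difference of 0.08. Lgals3, a galectin abundant in macrophages and also found in activated T cells, had the widest spread. It read 6.89 and 7.70 in KO TCDD and 6.62 and 7.35 in KO DMSO, against 7.16 and 6.94 in WT TCDD and 5.44 and 6.81 in WT DMSO. WT DMSO 1 was far below the rest, the other 7 arrays overlapped, and the difference of 0.55 (SE 0.39) was 0.17 without that array.

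Crip1, a small LIM-domain protein abundant in lymphocytes, read 9.75 and 9.99 in KO TCDD and 9.58 and 9.71 in KO DMSO, against 9.46 and 10.34 in WT TCDD and 9.59 and 10.48 in WT DMSO. Both WT arrays numbered 2 were above all others, and the difference of −0.21 (SE 0.23) was 0.23 without them. Ahnak, a scaffold of the plasma membrane that takes part in T cell calcium entry, read 8.07 and 8.44 in KO TCDD and 8.80 and 8.09 in KO DMSO, against 8.48 and 9.15 in WT TCDD and 8.29 and 8.41 in WT DMSO. The groups overlapped, with a difference of −0.23 (SE 0.22), and its other 3 probe sets differed by −0.07 to 0.07. Itgb1, the shared beta chain of the very late antigen integrins, averaged 6.80 ± 0.11 in KO and 6.87 ± 0.13 in WT on its main probe set (± SD of 4 arrays), and the differences of all 6 of its probe sets lay between −0.11 and 0.05. The 10 member probe sets with a mean under 6.13 differed by −0.17 to 0.11.

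Counted over the 22 probe sets, limma with Benjamini-Hochberg adjustment over all probe sets called 3 higher in KO (S100a4, S100a6 and Anxa2) and 0 lower, against 1.59% of all 22626 called higher and 1.20% lower (2.79% in all). In 6 of the 22 every KO array lay above every WT array, against 5.67% of all probe sets, and in 1 every KO array lay below, against 6.67%. These shares describe genes chosen for this contrast and nothing is read from them. The median difference was 0.02 over the 22 probe sets and −0.01 over all probe sets; over the main probe sets it was 0.58 for the 10 genes and 0 for all genes. The count of called member probe sets was 0 without KO TCDD 1, KO TCDD 2, WT TCDD 2 or WT DMSO 2. It was also 0 without both WT arrays numbered 2. Calls over all probe sets fell from 2.79% to 0.526%, 0.482%, 0.557% and 0.548% without those 4 arrays in turn. Without both WT arrays numbered 2 they fell to 0.124%. Without both, S100a4, S100a6, Anxa2 and Lgals1 still read 0.93, 0.69, 0.54 and 0.56 higher in KO.

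**Figure D2:**
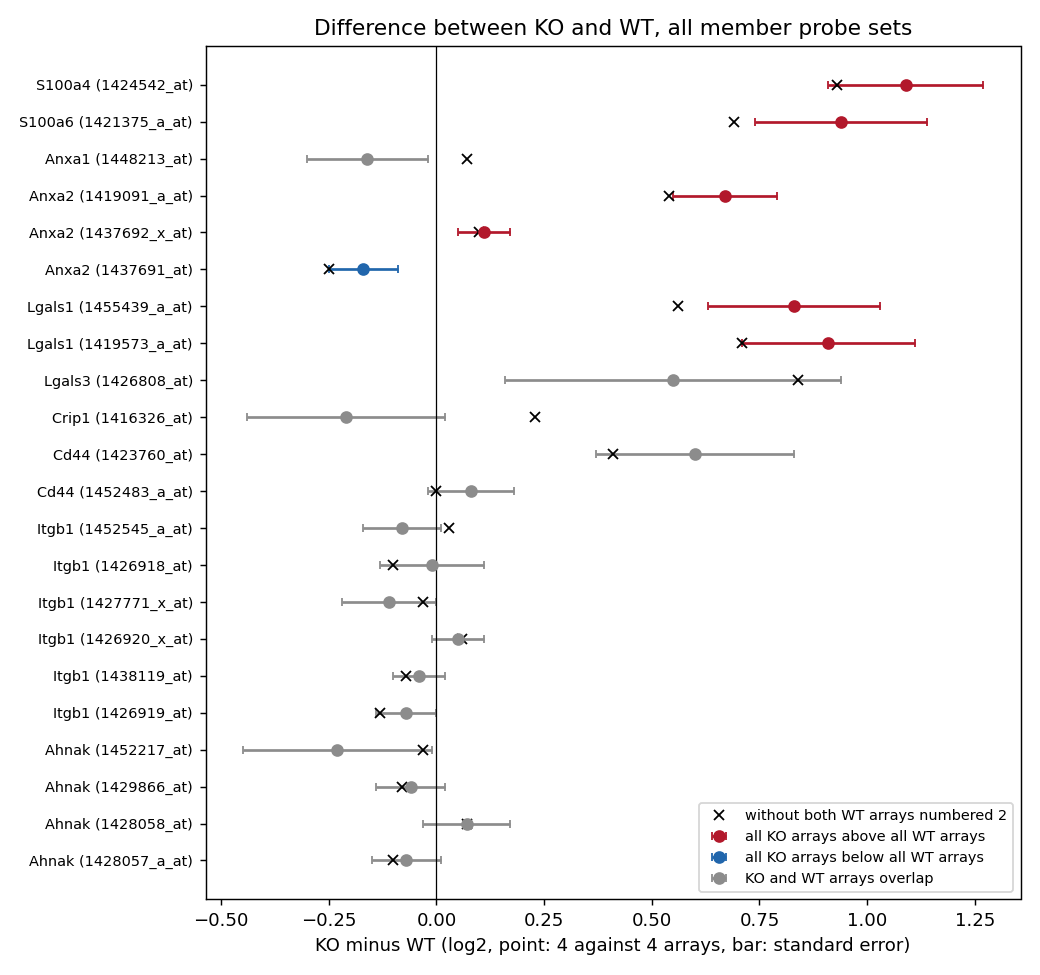
Difference in log2 expression between KO and WT (x axis) for the 22 probe sets (y axis), 4 arrays against 4; points are the difference, bars the standard error from limma, and crosses the value without both WT arrays numbered 2. S100a4 (1.09), S100a6 (0.94), both Lgals1 probe sets (0.83 and 0.91) and the main Anxa2 probe set (0.67) are highest, and for Crip1, Anxa1 and the main Itgb1 probe set the crosses (0.23, 0.07 and 0.03) lie on the other side of 0.

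Within WT the 2 arrays of a group differed in a common way. On the main probe sets, 5 genes (S100a4, S100a6, Anxa2, Lgals1 and Cd44) read lower on the array numbered 2 than on number 1 in both treatments, for S100a4 by 0.37 in the TCDD arrays and by 0.25 in the DMSO arrays. Another 4 (Anxa1, Crip1, Itgb1 and Ahnak) read higher on number 2 in both, for Crip1 by 0.88 in the TCDD arrays and by 0.89 in the DMSO arrays. By the sign of their KO minus WT difference the first 5 were positive and these 4 negative. The arrays numbered 2 are part of the WT mean, so this match of signs is partly built in. Lgals3 was lower on number 2 in the TCDD arrays and higher in the DMSO arrays. The share of all genes with equal signs in both treatments was not counted. The WT arrays numbered 2 also stood apart on the first principal component, which held 52.1% of the variance. Nothing particular to the members is therefore read from these counts. The part of array quality in the genotype differences was not tested, beyond the values without the WT arrays numbered 2 given above.

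Treatment was not used in choosing the genes, so it can be tested. After TCDD, no member probe set was called in either genotype (limma, Benjamini-Hochberg adjusted p from 0.997 in WT, n = 2 arrays each), and 0% of all probe sets were. In WT, 0 of 22 had an unadjusted p under 0.05, against 2.79% of all probe sets. Here S100a4, S100a6 and the main Lgals1 probe set differed between TCDD and DMSO by 0.00 (SE 0.21), 0.01 (SE 0.25) and 0.01 (SE 0.25). Lgals3 differed by 0.93 (SE 0.50), with WT DMSO 1 far below the other 3 arrays, and Cd44 by −0.60 (SE 0.26), neither called.

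In KO, TCDD arrays read above DMSO arrays for S100a4 (by 0.53, SE 0.21), S100a6 (by 0.53, SE 0.25) and both Lgals1 probe sets (by 0.53, SE 0.25, and 0.65, SE 0.20), with both TCDD arrays above both DMSO arrays in each. The share of all probe sets with that order was not counted, so nothing is read from it. Unadjusted p was under 0.05 for 2 of the 22 probe sets, S100a4 (0.0451) and the second Lgals1 probe set (0.0161), against 1.69% of all probe sets, and none passed (limma, Benjamini-Hochberg adjusted p = 1 after rounding). The difference between the TCDD effects in KO and WT was 0.53 (SE 0.30) for S100a4, 0.72 (SE 0.28) for the second Lgals1 probe set and 0.93 (SE 0.36) for Cd44. No interaction was called (limma, Benjamini-Hochberg adjusted p = 0.998 for all 22), and 2 of 22 had an unadjusted p under 0.05, against 2.78% of all probe sets. A group of 2 arrays limits what could be seen: in simulated data, 37.0% of changes of 1 log2 unit after TCDD in WT were recovered, and 0.746% of changes of 0.5. The simulated noise was independent between arrays and probe sets, so these rates may not carry over to the real arrays.

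**Figure D3:**
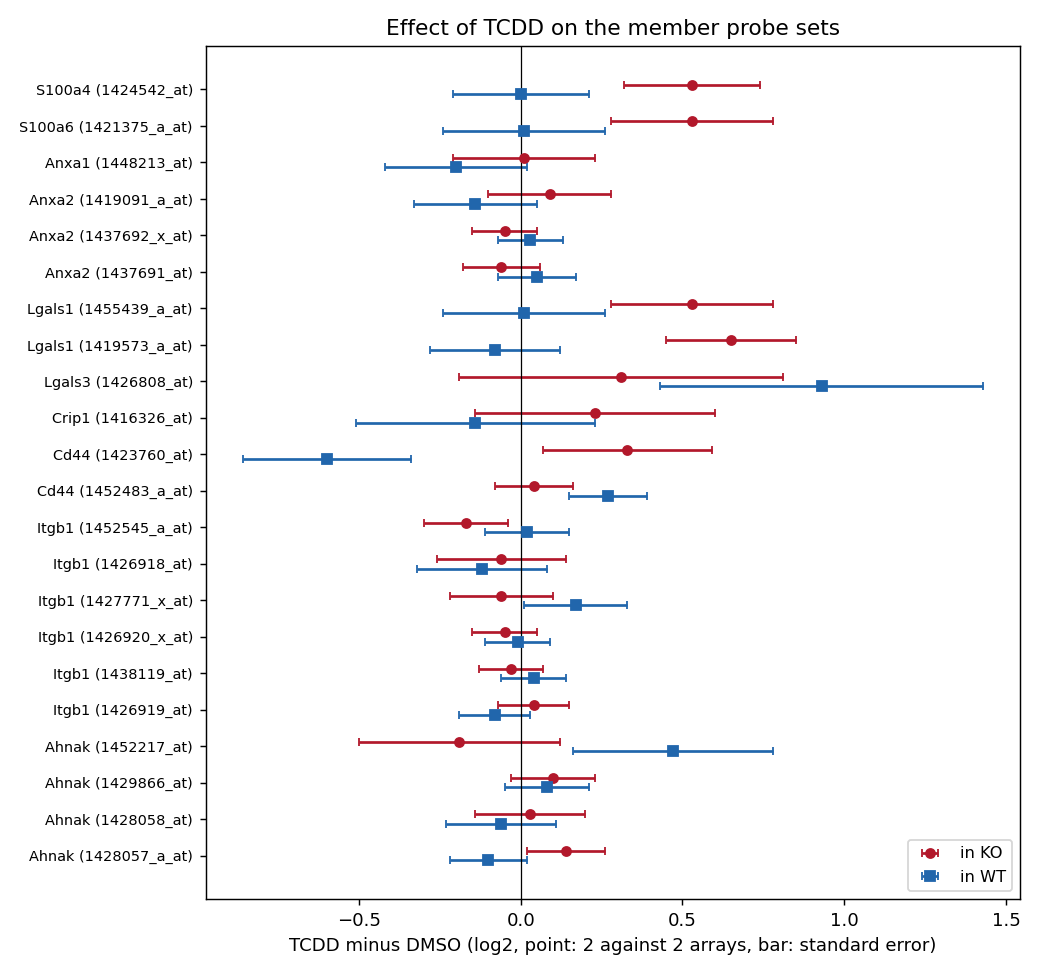
Difference in log2 expression between TCDD and DMSO (x axis) for the 22 probe sets (y axis) in KO (circles) and WT (squares), 2 arrays against 2, with standard errors from limma as bars. The KO points of S100a4, S100a6 and Lgals1 lie between 0.53 and 0.65 and their WT points between −0.08 and 0.01, and none was called.

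Of 31 other S100, annexin and galectin genes listed, 26 were measured, 1 was called higher and 0 lower in KO (limma, Benjamini-Hochberg; 3.24% of all genes were called by their main probe set, 1.90% higher and 1.33% lower). Their median difference was 0.05, against 0 over all genes, and 12 of the 26 lay under the median level. Every KO array lay above every WT array for 2 of them, S100a10 and Anxa3 (0.30), and below for 2, Anxa7 (−0.33) and Lgals12 (−0.22), against 6.28% and 6.71% of all genes; the last 3 were not called and are named from their values. The 1 called was S100a10, the partner of Anxa2 in the membrane-bound tetramer, which rose in KO by 0.32 (SE 0.06, adjusted p = 0.0392). Its main probe set read 9.09, 9.17, 9.11 and 9.12 in KO and 8.81, 8.79, 8.74 and 8.85 in WT, with no overlap, and its other probe set overlapped and differed by −0.23. This call was lost on leaving out any single array, although the difference stayed between 0.31 and 0.34. In the chromosome 3 cluster, S100a3 and S100a5, the measured neighbours of S100a4 and S100a6, differed by 0.09 (SE 0.10) and 0.03 (SE 0.09), with main probe sets under the median level. S100a8 and S100a9, the granulocyte calgranulins of the same cluster, averaged 6.54 ± 0.37 and 6.41 ± 0.69 in KO and 7.19 ± 0.82 and 6.40 ± 0.86 in WT (± SD of 4 arrays). None of 9 other annexins and 6 other galectins was called.

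Among 23 measured partners of the members, 1 was called higher (S100a10) and 1 lower, against 1.90% and 1.33% of all genes. The gene called lower was Myh9, the heavy chain of non-muscle myosin IIA, whose filaments S100a4 disassembles. Its main probe set read 11.21 and 11.63 in KO TCDD and 11.41 and 11.48 in KO DMSO, against 12.92 and 12.32 in WT TCDD and 12.65 and 11.90 in WT DMSO. All KO arrays lay below all WT arrays. Myh9 fell by 1.01 on the log2 scale (SE 0.21; limma, Benjamini-Hochberg adjusted p = 0.0428), and by 1.32 and 0.72 on 2 more probe sets that were also called (adjusted p = 0.0191 and 0.0265), while the remaining one differed by −0.07. Leaving out single arrays moved the main value between −1.20 and −0.86 and kept the call in 1 of 8 cases; the other called probe sets kept it in 5 of 8 each. Fermt3, an activator of integrins in blood cells, is named here although it was picked from its values: 1 of its 3 probe sets rose by 0.60 (limma, Benjamini-Hochberg adjusted p = 0.0482), a call kept in 1 of 8 cases when single arrays were left out. The other 2 read 0.51 (the main one) and 0.80 higher in KO without passing (adjusted p = 0.0580 and 0.0530). Itga6 and Rdx, also picked from their values, were not called. Their main probe sets read −1.12 and −0.95 in KO against WT (limma, Benjamini-Hochberg adjusted p = 0.102 and 0.0724).

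Of 29 measured memory and effector genes, 7 rose and 0 fell (against 1.90% and 1.33% of all genes), with a median difference of 0.40. The largest were the chemokine receptor Cxcr3 (2.12), the cytokine Ifng (2.08), the cytotoxic granule gene Nkg7 (1.38), the receptor Klrg1 (1.31), the chemokine Ccl5 (1.22) and the transcription regulator Id2 (1.08), with limma's Benjamini-Hochberg adjusted p between 0.00788 and 0.0428. The rise of Id2 was seen on its main probe set only. Its other probe sets overlapped between genotypes and differed by −0.08 and −0.51, neither called. Of 13 measured naive genes, 2 fell, the transcription factor Foxo1 (−1.23) and the chromatin organizer Satb1 (−0.65), and 0 rose, with a median of −0.61 (limma, Benjamini-Hochberg adjusted p = 0.0340 and 0.0392). The counts of 7 and 2 were 1 and 0 without both WT arrays numbered 2, where the medians were 0.33 and −0.22. Single arrays moved the memory count too: it was 2 without KO TCDD 1, KO TCDD 2, WT TCDD 2 or WT DMSO 2, and 4 without KO DMSO 1. The naive count was 0 without any one of those first 4 arrays or KO DMSO 2, 1 without WT DMSO 1 or WT TCDD 1, and 4 without KO DMSO 1. Of all probe sets, 2.79% were called with every array and 0.124% without both WT arrays numbered 2. The share was 0.482% to 0.557% without 1 of those first 4 arrays. It was 1.60% without KO DMSO 2 and 1.86% to 2.95% without 1 of the rest. These lists were chosen with earlier results known and overlap with lists used before on these arrays.

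**Figure D4:**
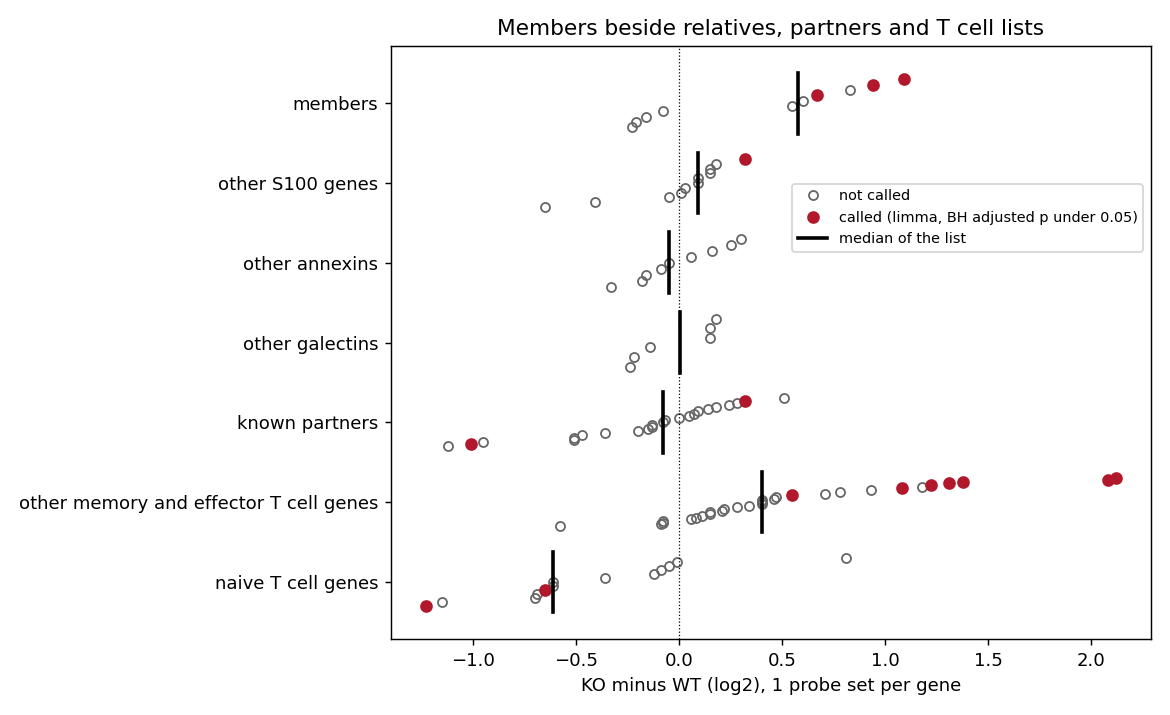
Difference in log2 expression between KO and WT (x axis) for the main probe set of each gene, by list (y axis); filled points were called by limma, open points were not, and vertical bars are list medians. The 10 members (median 0.58) form an upper and a lower cluster of 6 and 4 genes, and the other S100, annexin and galectin genes lie around 0.

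Some markers of other cell types moved with genotype as well. Of 14 measured monocyte and macrophage markers, 7 rose and 0 fell in KO, against 1.90% and 1.33% of all genes. The adaptor Tyrobp (2.48) and the lysosomal Cd68 (1.87) led. Those not called were C1qa (0.75), Fcgr1 (0.24), Adgre1 (0.16), Lyz2 (0.13), Itgam (0.08), Fcgr3 (−0.02) and Cd14 (−0.07). The mean level of this list per array ranged from 6.84 to 7.32 in KO and from 6.15 to 6.41 in WT. Of 11 dendritic cell markers, 8 rose and 0 fell, led by the transcription factor Irf8 (2.97) and the invariant chain Cd74 (2.76). Itgax (0.37), Zbtb46 (0.21) and Xcr1 (0.01) were not called. The dendritic list had mean levels of 8.32 to 9.14 in KO and 6.88 to 7.45 in WT. Without both WT arrays numbered 2 the counts of 7 and 8 were 2 and 1, while the median differences were 0.77 and 1.56, against 0.64 and 1.70 with all arrays. Leaving out 1 array gave macrophage counts of 3 (KO TCDD 1, KO TCDD 2 or WT DMSO 2) or 4 (KO DMSO 2 or WT TCDD 2) and otherwise 5 or 6, and dendritic counts of 4 (WT TCDD 2 or WT DMSO 2) and otherwise 6 to 8. The share of all probe sets called was 0.482% to 2.95% without 1 array, and 0.124% without both WT arrays numbered 2. The mean levels of the macrophage and dendritic lists separated the genotypes on every array, as S100a4, S100a6, Lgals1 and Anxa2 did. So did the memory and effector T cell list (7.96 to 8.22 in KO, 7.32 to 7.71 in WT). Antigen-experienced T cells and myeloid cells are both known to express these genes. The part of either in the member differences was not tested. Granulocyte markers (6.28 to 6.50 in KO, 6.20 to 6.54 in WT) and stromal and endothelial markers (5.91 to 6.01 in KO, 5.89 to 5.96 in WT) overlapped between genotypes with 0 of 10 and 0 of 7 called. B and plasma cell markers (6.07 to 6.54 in KO, 5.84 to 6.31 in WT) and NK and CD8 T cell markers (6.43 to 6.81 in KO, 6.39 to 6.70 in WT) overlapped too, with 0 called. Of platelet and erythroid markers 0 of 4 and 0 of 2 were called, and of CD4 T cell markers 1 of 11, higher in KO. The macrophage lysozyme Lyz2 averaged 7.49 ± 0.56 in KO and 7.36 ± 0.61 in WT (± SD of 4 arrays).

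**Figure D5:**
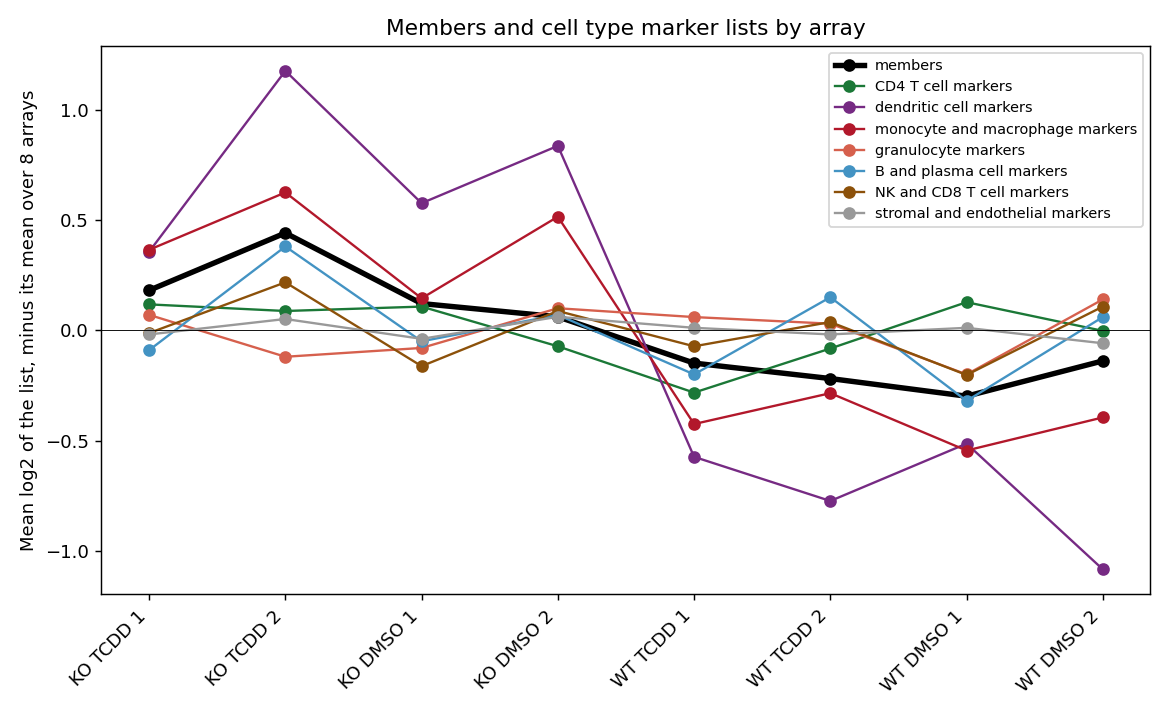
Mean log2 level of each marker list (y axis, minus its own mean over the 8 arrays) on the 8 arrays (x axis), with the mean of the 10 members in black. The members lie between 0.06 and 0.44 on KO arrays and between −0.30 and −0.13 on WT arrays, and the dendritic and macrophage lists separate the genotypes in the same direction by more.

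Likeness between genes was measured as the root mean square difference of their log2 profiles over the 8 arrays, each centred on its mean, so that 0 is an identical pattern; it is a description without a test. S100a6 was 0.170 and Lgals1 0.213 from S100a4, followed by Anxa2 (0.298) and Cd44 (0.357), while Lgals3, Itgb1, Anxa1, Ahnak and Crip1 lay at 0.663 to 0.794, against a median of 0.613 over all genes. By this measure the members fell into a set of 5 that includes S100a4 and a set of 5 no closer to it than most genes. Distances over these arrays depend on the KO minus WT difference for which the members were chosen, so the split largely restates that difference. The closest genes outside the members were Nbeal2 (0.134), Mvb12a (0.142), Pxn, the focal adhesion adaptor paxillin (0.155), and Ppib, a cyclophilin of the endoplasmic reticulum (0.159). These 4 were 0.95, 1.03, 1.22 and 0.91 higher in KO, a difference their closeness to S100a4 requires. The mean profile of all 10 members was closest to Uqcrb (0.0432), Eloa (0.0854), Cox19 (0.0938), Pilrb1 (0.0966), Fgf10 (0.0968) and S100a10 (0.0976), against a median of 0.282. Among the members only Anxa2 (0.206) lay nearer to this mean profile than that median. The other members lay at 0.296 (Itgb1) to 0.505 (Lgals3), so genes close to the mean are not close to most members.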

How the data were processed

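Per the submitters' processing notes, the authors made the deposited log2 expression values with RMA from the affy package (background correction, normalization between arrays, probe set summary); versions are not given in the sources used here. RNA was amplified with the Ambion MessageAmp kit, per the labels' protocols. Of 22690 probe sets, 64 controls were left out. Arrays were grouped by title. Symbols came from the array annotation, in which 20380 tested probe sets have 1 gene symbol, 691 several and 1555 none; 20351 were matched by Entrez identifier to RefSeq (GRCm38.p6), used for names and gene order. Both arrays of a group count as biological duplicates in the series' design text. Each array pools 4 mice, so p-values measure the spread between pools and not between single mice. For KO against WT, where treatments were pooled, that spread also holds the differences between TCDD and DMSO arrays.

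Fits used limma 3.58.1 in R 4.3.3 (lmFit, eBayes) over all probe sets, with Benjamini-Hochberg adjustment and a threshold of 0.05. KO was compared with WT as 4 against 4 arrays, treatments pooled as in the series' design text. TCDD effects and their interaction came from a model of 4 group means. Each gene in a list was counted by its probe set of highest mean, without set tests. The members and lists were chosen with earlier results of these data known. Named genes were all members, up to 6 called genes per list by size, S100a10, the genes closest in profile and 7 markers. Anxa3, Anxa7, Lgals12, Fermt3, Itga6, Rdx, Cd79b, Jchain, and Ccr7 and Icos in the closing section were named after their values were seen. So were the markers that lead their lists and the uncalled markers of the macrophage and dendritic lists, except Lyz2. Tested on simulated data with 22626 probe sets (200 changed, 20 runs), the KO against WT fit recovered 37.2% of changes of 0.5 log2, 74.0% of 1 and 94.5% of 2, and 5.29% of calls were false. The simulated noise was independent between arrays and probe sets and held no TCDD effect. These rates may therefore not carry over to the real arrays. Alternatives were other normalizations, filters, weights and models, a replicate block and array subsets. Precision is limited by the number of arrays.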

Additional observations from a re-analysis of the deposited data

Results flagged for a closer look

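Within each genotype, 1 array lay far from the other 3 for 3 member probe sets, by the gap to the nearest array relative to the whole range (Dixon's test for groups of 4). Chance alone marks about 5% of groups, and 44 were examined. Cd44 read 10.08 on KO TCDD 2, against 9.39 to 9.47 on the other KO arrays. On a probe set of Itgb1 under the median level, WT TCDD 2 read 4.83, against 4.49 on all other WT arrays. On another dim Itgb1 probe set, KO DMSO 2 read 4.13, against 4.06 to 4.07 on the other KO arrays.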

How the results depend on the processing

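Over all probe sets, 2.79% were called between KO and WT. The share was 7.09% with array weights, 7.81% with dim probe sets left out, 4.35% with another quantile normalization and 3.54% with the replicate block. It was 0.712% with 4 group means and 0% within TCDD or DMSO arrays. Without both WT arrays numbered 2 it was 0.124%, and without 1 array 0.482% to 2.95%. Nothing particular to a list is read from the counts below. The count of member probe sets called between KO and WT was 3, and 5 with array weights, with dim probe sets left out and with the replicate block. It was 1 with 4 group means fitted, 0 within TCDD arrays, 0 within DMSO arrays and 0 without both WT arrays numbered 2; leaving out 1 array gave 0 to 4. The count of other S100, annexin and galectin genes was 1, and 2 with array weights, 1 with the replicate block and after median centring, and 0 in all other alternatives, each left-out array included. The memory and effector count was 7, and 14 with array weights (13 higher and 1, Icos, lower), 3 in the model of 4 group means, 1 without both WT arrays numbered 2 and 0 from the TCDD or the DMSO arrays alone; leaving out 1 array gave 2 to 6. The naive count was 2, and 5 with array weights, 4 with dim probe sets left out or another quantile normalization, 1 with trend and robust settings, median centring or a gene's probe sets averaged, 3 with the replicate block (2 lower and 1, Ccr7, higher), and 0 when both WT arrays numbered 2 were dropped, within TCDD arrays, within DMSO arrays and with 4 group means; leaving out 1 array gave 0 to 4. Subsets of arrays test fewer samples, and for the rest the cause was not tested. Over 18 alternatives S100a4 stayed between 0.82 and 1.35, S100a6 between 0.69 and 1.20, Lgals1 between 0.56 and 1.09 and Anxa2 between 0.54 and 0.79 (main probe sets), all positive. Over all probe sets 360 were called higher and 271 lower, and 375 and 184 after median centring. No member was called for TCDD or the interaction in any alternative, the replicate block included (0). Equal array numbers went together in WT TCDD and WT DMSO (deviations correlated by 0.626) but not across all groups (−0.293 for KO DMSO with WT DMSO), so they were not taken as pairs. The macrophage and dendritic counts of 7 and 8, whose alternatives were chosen after seeing the data, were both 0 from the TCDD or the DMSO arrays alone, and the dendritic count was 4 with 4 group means.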
